A study of Homo sapiens with 17 samples.

Results

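LIN28B and the 9 genes described beside it (LIN28A, L1TD1, ZFP42, POU5F1, HMGA2, IGF2BP1, IGF2BP2, IGF2BP3 and IGDCC3) are genes of embryonic and foetal cells, and they were followed by name through reporter-sorted human embryonic stem cell derivatives. They were chosen by their FPKM levels (read fragments scaled to transcript length and to the size of the library) over the 6 groups, so their own levels and differences are given as a description with no test. They are 10 of 20218 named genes in the table, and 9 of them, all but POU5F1, reached 1 FPKM or more in 2 or more libraries, as 14845 genes did in all. RNA-seq was carried out on 17 libraries, each of 1 sorted population at day 40 or day 25 after directed differentiation. The GFP+mCherry+ population had 2 libraries at day 40 (numbers 10 and 13) and 3 at day 25 (1, 4 and 7). GFP-mCherry+ had 3 at day 40 (11, 14 and 17) and 3 at day 25 (2, 5 and 8), and GFP-mCherry- had 3 at day 40 (12, 15 and 18) and 3 at day 25 (3, 6 and 9). All 17 came from 1 line named SHOX2 on the H9 embryonic stem cell background and share the label of sinoatrial node-like cells. The design text equates GFP with SHOX2, a transcription factor of the sinoatrial node, the pacemaker of the heart. The gene that drives mCherry is not named. The growth protocol describes a cardiomyocyte and a sinoatrial procedure, both begun with CHIR99021, BMP4 and Activin A and continued with XAV939, with cucurbitacin, retinoic acid, SU5402, Tyrphostin AG 490 and chidamide in the sinoatrial one, and does not say which of them gave which population.

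LIN28A and LIN28B are RNA-binding proteins of early embryonic cells that block the maturation of let-7 microRNAs. Mature let-7 accumulates as cells differentiate and pairs through its seed with messenger RNAs that carry the complement, among them those of LIN28B, HMGA2 and the IGF2BP proteins, so that LIN28 and let-7 repress each other. HMGA2 is an architectural chromatin protein of foetal cells. IGF2BP1, IGF2BP2 and IGF2BP3 bind and stabilise messenger RNAs, IGDCC3 is a cell surface protein of the immunoglobulin superfamily and a known let-7 target, L1TD1 is an RNA-binding protein derived from a transposable element, and ZFP42 (REX1) and POU5F1 (OCT4) are transcription factors of pluripotent stem cells.

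The let-7 sequences show what the family shares and where the members carry its complement. RefSeq (GRCh38.p14) held 9 mature sequences of the family from 12 genes, and all 9 have the seed GAGGUAG at bases 2 to 8, in capitals in these 4:
hsa-let-7a-5p: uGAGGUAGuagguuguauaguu
hsa-let-7d-5p: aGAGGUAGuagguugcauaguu
hsa-let-7g-5p: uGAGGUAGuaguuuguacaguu
hsa-miR-98-5p: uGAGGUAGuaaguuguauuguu
The complement of the seed, CTACCTC, was searched in 3′ untranslated regions (UTRs) on the strand of the transcript, and with a following A it makes the 8-base match CTACCTCA. For the 4 members with 4 seed matches, 30 bases around an 8-base match (in capitals) read as follows, from GRCh38, each on the strand of its gene, at chr6:105078811-105078840 (plus strand) for LIN28B, chr12:65963297-65963326 (plus) for HMGA2, chr17:49051060-49051089 (plus) for IGF2BP1 and chr15:65328444-65328473 (minus) for IGDCC3:
LIN28B: tacccggttgcaaagtCTACCTCAtgcaag
HMGA2: cgccaacgttcgatttCTACCTCAgcagca
IGF2BP1: ctgtgtgcgaagtaaaCTACCTCAaggtat
IGDCC3: ttttggctctcagcacCTACCTCAgccgga
These are matches of letters in the reference. The levels of let-7 RNAs were not analysed here.

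The libraries had 12944 to 13793 genes at 1 FPKM or more, and a mean correlation with the other libraries of their group of 0.949 to 0.980. Libraries 13 and 14 had the fewest genes above 0, at 16493 and 16598. SHOX2 was at 58.5 and 90.2 FPKM in GFP+mCherry+ D40 libraries and at 49.0 to 138.9 FPKM in GFP+mCherry+ D25 libraries, against at most 2.41 FPKM in the other 12. The read depth of the libraries is unknown, and nothing in the labels says that they came from separate cultures, so p-values measure only the spread between these libraries.

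LIN28B (chr6:105404923-105531207, hg19) was above 1 FPKM in all 17 libraries and lower at day 40 than at day 25 in every population. In GFP+mCherry+ cells it was at 3.71 and 3.82 FPKM at D40 and at 5.45, 7.99 and 6.64 FPKM at D25. In GFP-mCherry+ cells it was at 1.78, 1.98 and 2.57 FPKM at D40, against 5.68, 4.22 and 2.87 FPKM at D25. GFP-mCherry- libraries held 4.65, 3.53 and 7.06 FPKM at D40, against 13.6, 15.7 and 14.5 FPKM at D25. In no population did the libraries of the 2 days overlap, and the GFP-mCherry- D25 libraries stood above all others. The order of the group means was GFP-mCherry- D25 (14.6 ± 1.05 FPKM, SD, n = 3), GFP+mCherry+ D25 (6.70 ± 1.27, n = 3), GFP-mCherry- D40 (5.08 ± 1.81, n = 3), GFP-mCherry+ D25 (4.26 ± 1.40, n = 3), GFP+mCherry+ D40 (3.76 ± 0.0755, n = 2) and GFP-mCherry+ D40 (2.11 ± 0.411, n = 3). Neighbours from the second to the fifth place had overlapping libraries, while the first and the last group overlapped no neighbour. In such bulk samples, fewer cells of a type and less RNA per cell cannot be told apart.

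LIN28A (chr1:26737269-26756213) had lower levels than its paralogue and more scatter. Its D40 levels in GFP+mCherry+ cells were 0.350 and 1.09 FPKM, against 0.617, 5.33 and 2.86 FPKM at D25. GFP-mCherry+ cells had 0.0991, 0.375 and 0.368 FPKM at D40 and 1.12, 1.62 and 0.136 FPKM at D25, so that the days overlapped in both mCherry+ populations. In GFP-mCherry- cells the D40 libraries, at 0.604, 0.974 and 2.08 FPKM, all lay under the D25 libraries, at 4.98, 4.57 and 3.85 FPKM. Every neighbouring pair in the order of the 6 groups overlapped for LIN28A.

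**Figure D1:**
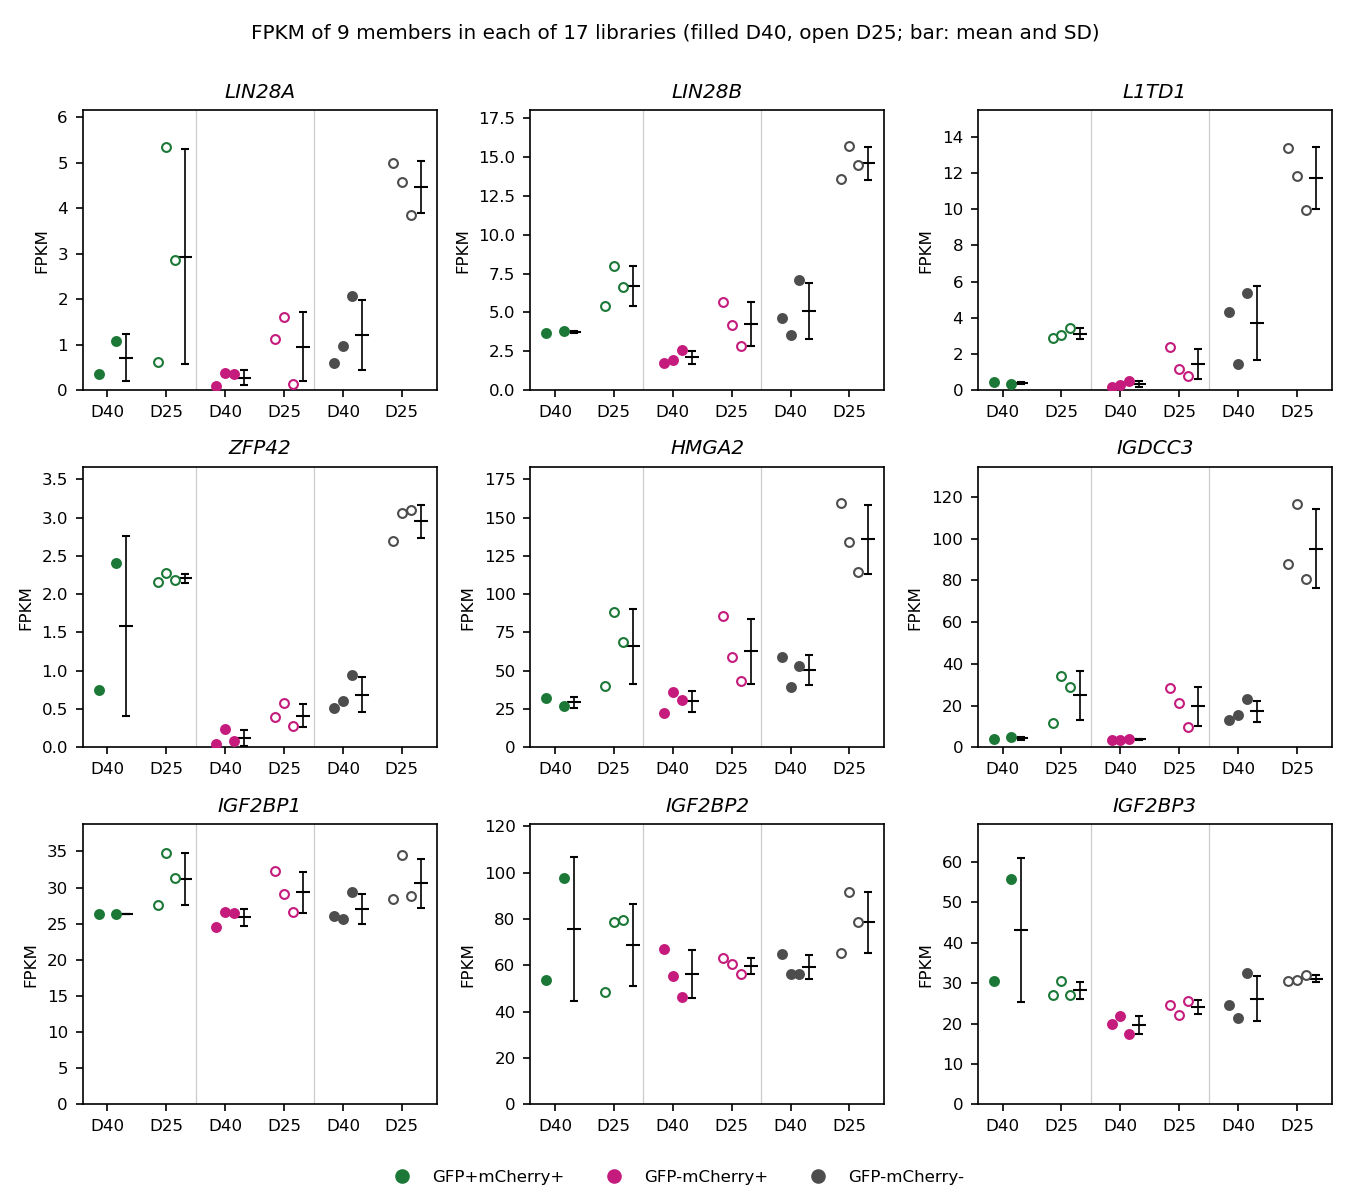
FPKM of the 9 members that passed the filter in each of 17 libraries, 1 panel a gene on its own linear axis from 0, with populations side by side, D40 (filled points) left of D25 (open points), and bars for the group mean and SD. LIN28B, L1TD1, HMGA2 and IGDCC3 are highest in the GFP-mCherry- D25 libraries, while IGF2BP1 stays between 24.5 and 34.7 FPKM in all 17.

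Of the 3 pluripotency-associated members, L1TD1 and ZFP42 were measurable and POU5F1 was not. L1TD1 (chr1:62660503-62678000) was at 0.467 and 0.376 FPKM in GFP+mCherry+ D40 cells, against 2.88, 3.08 and 3.44 FPKM in GFP+mCherry+ D25 cells. In GFP-mCherry+ cells it was at 0.194, 0.311 and 0.503 FPKM at D40, against 2.38, 1.16 and 0.818 FPKM at D25. In GFP-mCherry- cells it was at 4.33, 1.45 and 5.37 FPKM at D40, against 13.3, 11.8 and 9.97 FPKM at D25. The 2 days did not overlap in any population, and the GFP-mCherry- libraries of D25 lay above the other 14. The mean over GFP-mCherry- D25 libraries was 34.9 times the mean over GFP-mCherry+ D40 libraries, the widest such span of the 9 members.

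ZFP42 (chr4:188916925-188926204) had every GFP+mCherry+ library above every GFP-mCherry+ library. It was at 0.751 and 2.41 FPKM in GFP+mCherry+ D40 cells and at 2.16, 2.28 and 2.187 FPKM in GFP+mCherry+ D25 cells. GFP-mCherry+ cells had 0.0486, 0.235 and 0.0857 FPKM at D40, against 0.398, 0.574 and 0.273 FPKM at D25. GFP-mCherry- cells had 0.517, 0.608 and 0.945 FPKM at D40, against 2.69, 3.05 and 3.10 FPKM at D25. The days overlapped in GFP+mCherry+ cells, where the higher D40 library was 13, and in neither of the other populations.

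POU5F1 (chr6:31132119-31148508) did not exceed 0.155 FPKM in any library and was left out of the fit. Its near-identical copy POU5F1B, with which it may share reads, did not exceed 0.691 FPKM. NANOG, another core pluripotency factor, was listed at 0 in every library of 4 groups and did not exceed 0.0721 FPKM in the other 2. SOX2 averaged between 0.110 and 1.065 FPKM over the groups, with 1.93 FPKM in library 13. Of 27 further pluripotency network genes in the table, between 16 and 18 stayed under 1 FPKM in every library of a group. Of the same 27 genes, 11 passed the filter. POU5F1 and NANOG thus go against a label of residual pluripotency, while L1TD1, ZFP42, LIN28A and these 11 genes passed the filter.

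HMGA2 and IGDCC3 were the members with the highest levels at D25 in GFP-mCherry- cells, and both were lower at D40 in every population. HMGA2 (chr12:66217911-66360075) was at 32.1 and 26.8 FPKM in GFP+mCherry+ D40 cells, against 40.2, 88.3 and 69.1 FPKM in GFP+mCherry+ D25 cells. It was at 22.6, 36.4 and 31.1 FPKM in GFP-mCherry+ D40 cells, against 85.5, 58.9 and 43.6 FPKM in GFP-mCherry+ D25 cells. GFP-mCherry- cells held 58.7, 39.7 and 53.0 FPKM at D40, against 159.5, 133.9 and 114.4 FPKM at D25. The days were separate in each population, and the 2 mCherry+ populations overlapped each other on both days.

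IGDCC3 (chr15:65619465-65670378) had the wider ratio between the days of these genes. It was at 3.88 and 4.98 FPKM in GFP+mCherry+ D40 cells, against 11.7, 34.2 and 28.8 FPKM in GFP+mCherry+ D25 cells. It was at 3.73, 3.70 and 3.97 FPKM in GFP-mCherry+ D40 cells, against 28.3, 21.3 and 9.77 FPKM in GFP-mCherry+ D25 cells. It was at 13.2, 15.6 and 23.0 FPKM in GFP-mCherry- D40 cells, against 87.9, 116.5 and 80.8 FPKM in GFP-mCherry- D25 cells. The D25 mean was 5.62, 5.21 and 5.51 times the D40 mean in GFP+mCherry+, GFP-mCherry+ and GFP-mCherry- cells, so the ratio of the days was alike while the level in GFP-mCherry- cells was higher on each day.

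The 3 IGF2BP genes had levels above 17 FPKM in every library on both days. IGF2BP1 (chr17:47074774-47133012) was at 26.3 and 26.4 FPKM in GFP+mCherry+ D40 cells and at 27.6, 34.7 and 31.3 FPKM in GFP+mCherry+ D25 cells. GFP-mCherry+ cells had 24.5, 26.6 and 26.4 FPKM at D40 and 32.3, 29.2 and 26.6 FPKM at D25, and GFP-mCherry- cells had 26.1, 25.7 and 29.4 FPKM at D40 and 28.4, 34.5 and 28.8 FPKM at D25. The lowest and the highest library thus differed 1.41-fold. Over the 17 libraries its coefficient of variation was 10.7%, and of 5043 genes with a mean within 2-fold of its own, 0.853% varied less, with a median of 27.7%.

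IGF2BP2 (chr3:185361527-185542844) was at 53.6 and 97.7 FPKM in GFP+mCherry+ D40 cells and at 48.4, 78.5 and 79.5 FPKM in GFP+mCherry+ D25 cells. GFP-mCherry+ cells had 66.9, 55.4 and 46.2 FPKM at D40 and 62.9, 60.5 and 56.2 FPKM at D25. GFP-mCherry- cells had 65.0, 56.4 and 56.2 FPKM at D40, against 65.3, 91.8 and 78.7 FPKM at D25, the only population whose days did not overlap. IGF2BP3 (chr7:23349828-23510086) had 30.5 and 55.6 FPKM in GFP+mCherry+ D40 cells and 27.0, 30.6 and 27.0 FPKM in GFP+mCherry+ D25 cells. It had 19.9, 21.8 and 17.4 FPKM in GFP-mCherry+ D40 cells, against 24.6, 22.2 and 25.5 FPKM in GFP-mCherry+ D25 cells. It had 24.7, 21.4 and 32.4 FPKM in GFP-mCherry- D40 cells and 30.5, 30.7 and 32 FPKM in GFP-mCherry- D25 cells. Library 13 held the highest value of the 17 for both genes.

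**Figure D2:**
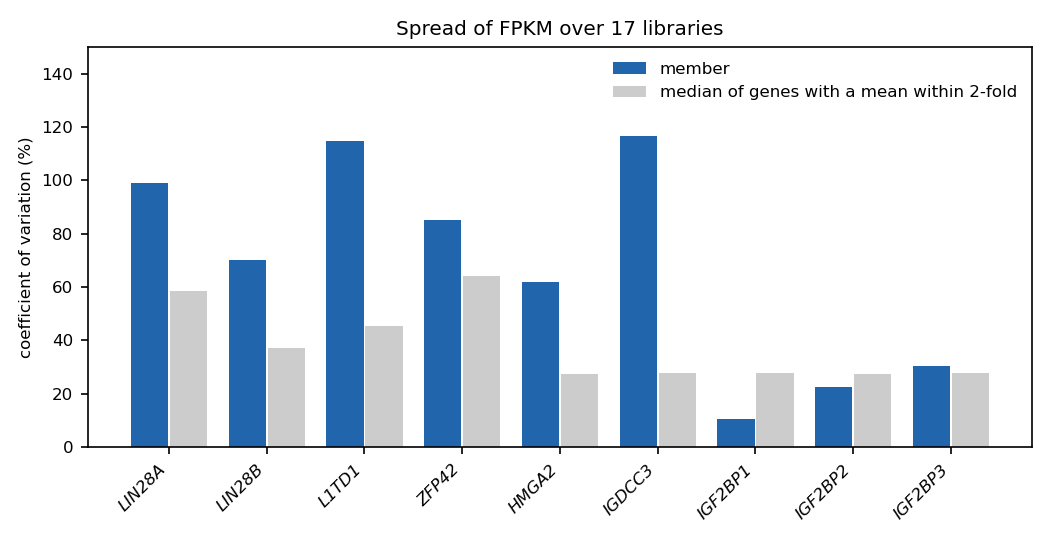
Coefficient of variation of FPKM over 17 libraries for the 9 members (blue bars), beside the median of all genes whose mean FPKM is within 2-fold of the member's (grey bars). IGDCC3 (117%) and L1TD1 (115%) lie above that median and IGF2BP1 (10.7%) lies under it.

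The other members varied more than the median gene of similar level, except IGF2BP2. The coefficient of variation was 70.2% for LIN28B against a median of 37.3%, 61.9% for HMGA2 against 27.6%, 115% for L1TD1 against 45.3% and 117% for IGDCC3 against 27.7%. It was 30.4% for IGF2BP3 and 22.4% for IGF2BP2. The members were chosen with these values known, so these positions are a description.

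The first comparison asks how the members at day 40 differed from day 25 within each population. The differences are on the log2(FPKM + 1) scale, which understates changes of genes near or under 1 FPKM, with limma's standard error, and carry no test because the same values led to the choice of the genes. IGDCC3 differed by -2.13 ± 0.41 in GFP+mCherry+, -2.00 ± 0.37 in GFP-mCherry+ and -2.41 ± 0.37 in GFP-mCherry- cells. L1TD1 differed by -1.54 ± 0.34, -0.83 ± 0.30 and -1.54 ± 0.30 in the same order of populations. HMGA2 differed by -1.07 ± 0.32, -1.01 ± 0.29 and -1.42 ± 0.29. These 3 genes were lower at D40 throughout and kept that sign in each alternative that was run. With a pseudocount of 0.1 in place of 1, L1TD1 differed by -2.63 in GFP+mCherry+ and -1.77 in GFP-mCherry+ cells.

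LIN28B differed by -0.68 ± 0.27 in GFP+mCherry+, -0.73 ± 0.24 in GFP-mCherry+ and -1.40 ± 0.24 in GFP-mCherry- cells, and LIN28A by -1.02 ± 0.46, -0.54 ± 0.41 and -1.35 ± 0.41. ZFP42 differed by -0.39 ± 0.24, -0.33 ± 0.22 and -1.23 ± 0.22. The LIN28 genes kept their sign in every alternative, with LIN28A at -1.63 in GFP+mCherry+ and -1.16 in GFP-mCherry+ cells under the pseudocount of 0.1, and ZFP42 in GFP+mCherry+ cells went to -0.87 without library 13 and to 0.09 without library 10. Under the pseudocount of 0.1 ZFP42 differed by -1.25 in GFP-mCherry+ and -1.98 in GFP-mCherry- cells. IGF2BP1 differed by -0.23 ± 0.16, -0.17 ± 0.15 and -0.17 ± 0.15. IGF2BP2 differed by 0.11 ± 0.26, -0.11 ± 0.23 and -0.39 ± 0.23, and IGF2BP3 by 0.54 ± 0.22, -0.28 ± 0.20 and -0.26 ± 0.20. In GFP+mCherry+ cells the values without library 13 were -0.32 for IGF2BP2 and 0.11 for IGF2BP3, and without library 10 they were 0.54 and 0.96, so the day difference of both genes in that population rests on which of the 2 libraries is kept.

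Counted over the members, 2 of 9 passed an adjusted p of 0.05 as lower at D40 in GFP+mCherry+ cells, where 1.88% of 14845 genes were called lower (IGDCC3 and L1TD1). In GFP-mCherry+ cells it was 1 of 9 (IGDCC3) beside 3.91%, and in GFP-mCherry- cells 5 of 9 (HMGA2, IGDCC3, L1TD1, LIN28B and ZFP42) beside 2.32%. Every D40 library lay under every D25 library for 5 of the 10 members in GFP+mCherry+ cells (20.9% of genes tested), for 6 in GFP-mCherry+ cells (14.2%) and for 7 in GFP-mCherry- cells (16.9%). The choice of the members used these contrasts, so nothing is read from the counts. The median difference of the 9 members was -0.68, -0.54 and -1.35, beside -0.04, -0.03 and -0.09 over all genes tested. Markers of other cell types also differed between the days. The sum of the myeloid markers over 6 genes was 89.0 to 229.8 FPKM in GFP+mCherry+ D40 and 17.1 to 21.7 FPKM in GFP+mCherry+ D25 cells, 28.7 to 44.5 FPKM in GFP-mCherry+ D40 and 1.49 to 16.02 FPKM in GFP-mCherry+ D25 cells, and 18.7 to 28.9 FPKM in GFP-mCherry- D40 and 11.1 to 12.2 FPKM in GFP-mCherry- D25 cells, and 6, 3 and 0 of the 6 were called higher at D40. In GFP+mCherry+ cells 10 of 10 epithelial markers had a lower D40 mean on the log2 scale, with a median difference of -1.14 and 1 call (CLDN3), and in GFP-mCherry- cells 9 of 10, with a median of -0.50 and 1 call (CLDN3). In GFP-mCherry- cells 3 of 6 tested endothelial markers were called lower at D40 (CDH5, ESAM and TIE1), and only these 3 had a negative difference. The sum of the endothelial markers was 82.6 to 155.8 FPKM in GFP-mCherry- D40 and 64.4 to 110.7 FPKM in GFP-mCherry- D25 cells. Of 9 tested endoderm and hepatic markers in GFP-mCherry- cells, 3 were called higher at D40 (APOA2, APOB and HNF4A) and 1 lower (SOX17). The sum of the endoderm and hepatic markers was 854 to 1777 FPKM in GFP-mCherry- D40 and 279 to 515 FPKM in GFP-mCherry- D25 cells. The hepatic marker APOA1 was called lower at D40 in both mCherry+ populations, as the only call of the 9 in each. In GFP+mCherry+ cells 8 of the 9 had a negative difference, with a median of -0.94. In GFP-mCherry+ cells 4 of the 9 did, with a median of 0.03. The sum in GFP-mCherry+ cells was 154.2 to 368.5 FPKM at D40 and 123.2 to 681.6 FPKM at D25. The part of these markers in the members' differences was not tested.

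**Figure D3:**
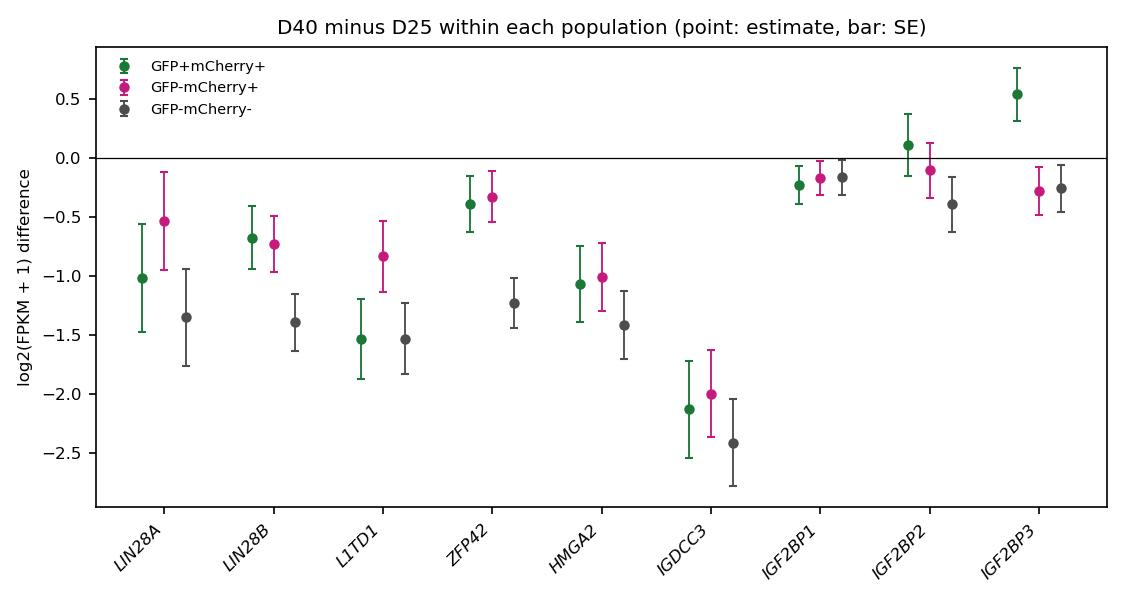
Difference in log2(FPKM + 1) between D40 and D25 for the 9 members in the GFP+mCherry+, GFP-mCherry+ and GFP-mCherry- populations, with bars of 1 standard error from limma. IGDCC3 lies lowest in each population (-2.13, -2.00 and -2.41) and IGF2BP1 lies between -0.23 and -0.17.

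The second comparison sets the sorted populations beside each other on each day. Against GFP-mCherry- cells at D25, GFP+mCherry+ cells differed by -2.00 ± 0.37 for IGDCC3, -1.62 ± 0.30 for L1TD1, -1.09 ± 0.29 for HMGA2 and -1.03 ± 0.24 for LIN28B. GFP-mCherry+ cells differed from the same GFP-mCherry- libraries by -2.31 ± 0.37 for IGDCC3, -2.41 ± 0.30 for L1TD1, -1.15 ± 0.29 for HMGA2, -1.60 ± 0.24 for LIN28B, -1.56 ± 0.41 for LIN28A and -1.48 ± 0.22 for ZFP42. GFP-mCherry- cells thus had the highest levels of these genes at D25. The IGF2BP genes differed by at most 0.38 in size in either comparison. The 2 comparisons share the GFP-mCherry- libraries.

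At D40 the same order held for L1TD1, at -1.62 ± 0.34 in GFP+mCherry+ and -1.71 ± 0.30 in GFP-mCherry+ cells against GFP-mCherry- cells, and for IGDCC3, at -1.72 ± 0.41 and -1.89 ± 0.37. HMGA2 differed by -0.75 in GFP+mCherry+ and -0.74 in GFP-mCherry+ cells, and LIN28A by -0.35 and -0.75. Both genes kept these signs in every alternative, but the LIN28A value in GFP+mCherry+ cells ranged from -0.69 to -0.03. Its GFP+mCherry+ and GFP-mCherry- libraries overlapped at D40. LIN28B differed by -0.31 ± 0.27 in GFP+mCherry+ and -0.93 ± 0.24 in GFP-mCherry+ cells, where the GFP+mCherry+ value was -0.50 without library 15 and -0.09 without library 18. ZFP42 differed by 0.54 ± 0.24 in GFP+mCherry+ and -0.59 ± 0.22 in GFP-mCherry+ cells, and IGF2BP3 by 0.66 ± 0.22 and -0.38 ± 0.20. For these last 2 genes GFP+mCherry+ cells lay above GFP-mCherry- cells at D40 by an amount that moved to 0.06 for ZFP42 and 0.23 for IGF2BP3 without library 13.

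Between the 2 mCherry+ populations, ZFP42 was the member that differed most, by 1.19 ± 0.22 at D25 and 1.13 ± 0.24 at D40 in GFP+mCherry+ against GFP-mCherry+ cells. With a pseudocount of 0.1 these values of ZFP42 were 2.205 and 2.8, and without library 13 the D40 value was 0.64. IGF2BP3 differed by 0.22 ± 0.20 at D25 and 1.04 ± 0.22 at D40, with 0.61 at D40 without library 13. LIN28B differed by 0.57 ± 0.24 and 0.62 ± 0.27 and kept its sign in every alternative, at 0.32 for D40 with quantile normalization. HMGA2, at 0.05 ± 0.29 and -0.01 ± 0.32, and IGDCC3, at 0.31 ± 0.37 and 0.17 ± 0.41, changed sign in some alternatives, so no direction is given for them.

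Of the 9 members, GFP+mCherry+ cells had 1 called higher than GFP-mCherry+ cells at D25 (ZFP42), where 12% of genes tested were called higher, and 2 at D40 (ZFP42 and IGF2BP3), beside 16.2%. Against GFP-mCherry- cells, GFP+mCherry+ cells had 4 called lower at D25 (HMGA2, IGDCC3, L1TD1 and LIN28B) beside 5.27%, and 2 at D40 (IGDCC3 and L1TD1) beside 4.76%. GFP-mCherry+ cells had 6 called lower than GFP-mCherry- cells at D25 beside 16.4%, and 4 at D40 (IGDCC3, L1TD1, LIN28B and ZFP42) beside 18.5%. Nothing is read from these counts either, since the contrasts helped to choose the members.

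**Figure D4:**
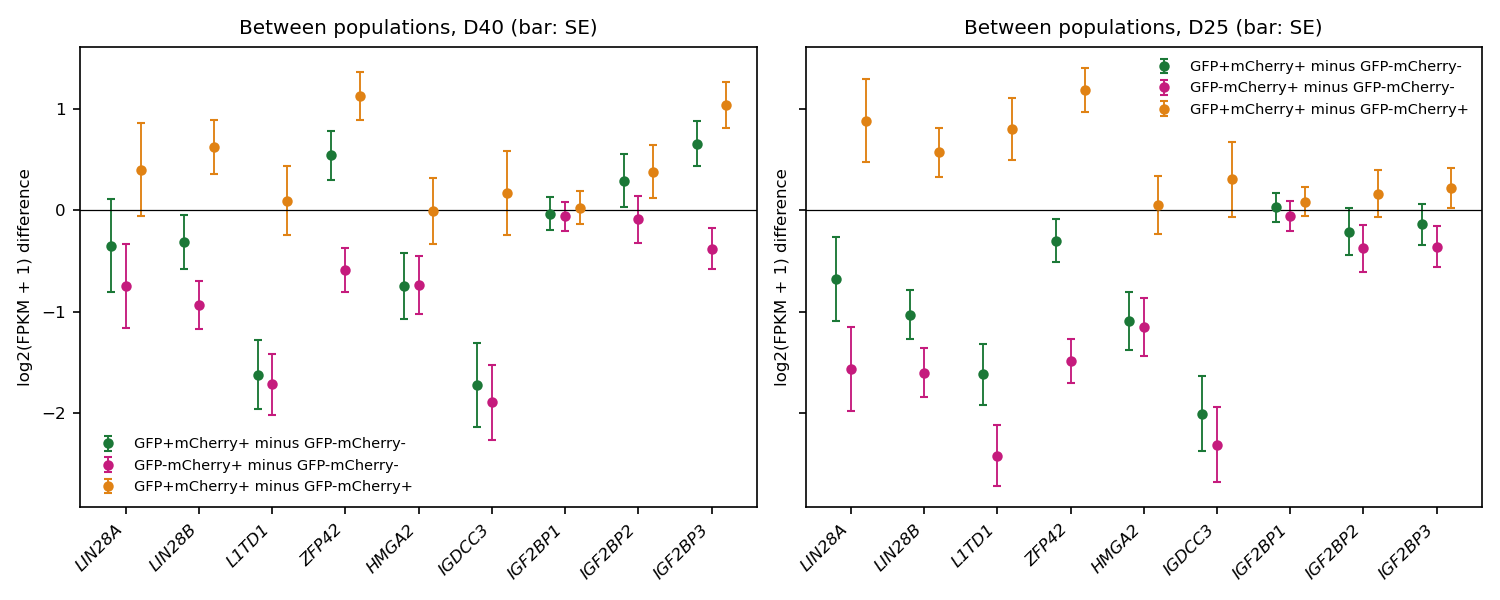
Difference in log2(FPKM + 1) between sorted populations at D40 and D25 for the 9 members, with bars of 1 standard error from limma. L1TD1, IGDCC3, HMGA2, LIN28B and LIN28A lie under 0 in both mCherry+ populations against GFP-mCherry- cells on both days, and ZFP42 lies above 0 in GFP+mCherry+ against GFP-mCherry+ cells (1.19 at D25, 1.13 at D40).

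Markers of other cell types moved with these population differences. The summed FPKM of 10 epithelial markers (EPCAM and keratins among them) was 939 to 1237 in GFP+mCherry+ D40, 1538 to 1698 in GFP+mCherry+ D25, 632 to 877 in GFP-mCherry+ D40 and 765 to 1053 in GFP-mCherry+ D25 cells, against 1705 to 2751 in GFP-mCherry- D40 and 2558 to 2897 in GFP-mCherry- D25 cells. EPCAM alone averaged 78.2 ± 37.9, 167 ± 34.6, 49.5 ± 25.4 and 58.6 ± 8.95 FPKM in these 4 mCherry+ groups, against 218 ± 41.2 and 376 ± 51.1 FPKM in GFP-mCherry- D40 and D25 cells. At most 1 of the 10 was under 1 FPKM in every library of a group. The order of the groups in EPCAM was thus close to that of L1TD1 and LIN28B.

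Cardiomyocyte markers ran the other way. The 12 of them (TNNT2 and other sarcomere genes) summed to 7123 to 12200 FPKM in GFP+mCherry+ D40, 6661 to 15990 in GFP+mCherry+ D25, 20820 to 36090 in GFP-mCherry+ D40 and 26760 to 35270 in GFP-mCherry+ D25 cells, against 810 to 3554 in GFP-mCherry- D40 and 831 to 1238 in GFP-mCherry- D25 cells. None of the 12 was under 1 FPKM in every library of any group. GFP-mCherry- cells thus carry the label of sinoatrial node-like cells with the lowest cardiomyocyte sums, and with 2 of 6 sinoatrial markers under 1 FPKM in every D25 library and 1 of 6 in every D40 library. The 10 fibroblast markers summed to 8761 to 14480 FPKM over the GFP+mCherry+ libraries, 2019 to 7446 over GFP-mCherry+ and 7437 to 23430 over GFP-mCherry- libraries. The part of these cell type markers in the members' differences was not tested.

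The third comparison is of the day changes themselves. The log2 day difference of LIN28B was less negative by 0.72 ± 0.36 in GFP+mCherry+ and by 0.67 ± 0.34 in GFP-mCherry+ cells than in GFP-mCherry- cells, and that of ZFP42 by 0.84 ± 0.32 and 0.90 ± 0.30. IGF2BP3 differed in its day change by 0.82 ± 0.30 between GFP+mCherry+ and GFP-mCherry+ cells and by 0.80 ± 0.30 between GFP+mCherry+ and GFP-mCherry- cells. Without library 13 these values of IGF2BP3 were 0.39 and 0.37, without library 10 they were 1.24 and 1.22, and the 0.84 of ZFP42 was 0.36 without library 13. None of the 9 members passed the adjusted threshold in any of the 3 differences of day change by limma, beside 0.0135% of genes for GFP+mCherry+ minus GFP-mCherry+, 0.00674% for GFP-mCherry+ minus GFP-mCherry- and 1.24% for GFP+mCherry+ minus GFP-mCherry-. Unadjusted p-values under 0.05 were reached by 6.59%, 6.7% and 8.24% of all genes tested in the 3 differences.

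Over the 17 libraries the members with lower D40 levels varied together, which is given as a description because the libraries share the groups that chose the genes. Pearson's r of log2(FPKM + 1) over the libraries was 0.956 between HMGA2 and IGDCC3, 0.944 between LIN28B and L1TD1 and 0.938 between LIN28B and IGDCC3. It was 0.195 between HMGA2 and IGF2BP3. Among 11970 other genes with a group mean of at least 5 FPKM, those most like LIN28B were NTRK2, a neurotrophin receptor (r = 0.957), STX6 (0.952), SPNS2, a sphingosine-1-phosphate transporter (0.951) and SYNE4 (0.949). Those most like L1TD1 were KCNJ2, a potassium channel (0.976), SPNS2 (0.969), CPNE2 (0.965) and ADAMTS18 (0.965). HMGA2 was followed by HAPLN1, a matrix link protein (0.968), and the developmental transcription factor genes EYA1 (0.946), HOXB2 (0.943) and ALX1 (0.927). IGF2BP1 had weaker likenesses, led by ZCCHC14 (0.867), TMEM181 (0.857), PRTG (0.838) and PPFIA1 (0.833).

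NTRK2 had group means of 4.89 FPKM in GFP+mCherry+ D40, 24.1 in GFP+mCherry+ D25, 3.08 in GFP-mCherry+ D40 and 7.40 in GFP-mCherry+ D25 cells, against 11.8 in GFP-mCherry- D40 and 66.3 in GFP-mCherry- D25 cells. STX6, with means of 9.13 to 13.8 FPKM, has a high correlation over a narrow range of levels. PRTG, an immunoglobulin superfamily relative of IGDCC3 with let-7 seed matches of its own, is in this list beside IGF2BP1.

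The seed matches set the 10 members apart into groups that the rule did not use. LIN28B, HMGA2, IGF2BP1 and IGDCC3 each had 4 matches of CTACCTC in the 3′ UTR, LIN28A, IGF2BP2 and IGF2BP3 had 1, and L1TD1, ZFP42 and POU5F1 had 0. With the following A the counts were 2 for LIN28B, 1 for HMGA2, 3 for IGF2BP1, 3 for IGDCC3 and 1 for each of the others that had a match. The UTRs were 4549 bases long for LIN28B, 3003 for HMGA2, 6206 for IGF2BP1 and 1782 for IGDCC3. Among UTRs within 20% of that length, at least as many matches were held by 0.245% of 1225, 0.106% of 1886, 0.584% of 685 and 0.0430% of 2325. For LIN28A, IGF2BP2 and IGF2BP3, with 1 match each, the shares were 16.3% of 1746, 11.1% of 2313 and 12.0% of 2173. Each of these shares counts the member itself. Over 19057 genes with a 3′ UTR, 8.59% had at least 1 seed match, 3.27% an 8-base match and 0.163% at least 3 seed matches.

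Members with the same number of matches had unlike day differences. With 4 matches each, IGDCC3 differed by -2.13, -2.00 and -2.41 in the 3 populations and IGF2BP1 by -0.23, -0.17 and -0.17. L1TD1, with no match in its window, differed by -1.54, -0.83 and -1.54. Among 25 other tested genes with 3 or more matches, the median difference was -0.23 in GFP+mCherry+, -0.08 in GFP-mCherry+ and -0.22 in GFP-mCherry- cells, beside -0.04, -0.03 and -0.09 over 12500 genes with none. These 2 classes had median UTR lengths of 6015 and 959 bases, and the part of length was not tested. The medians were -0.004, -0.02 and -0.10 over 1190 genes with 1 match, and -0.04, -0.06 and -0.06 over 126 genes with 2. Of the 25 genes, in GFP+mCherry+ cells PTAFR passed the test as higher and HIC2 as lower, in GFP-mCherry+ cells HIC2 and LIMD2 as lower, and in GFP-mCherry- cells TRIM71 as lower, by limma with Benjamini-Hochberg adjustment.

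**Figure D5:**
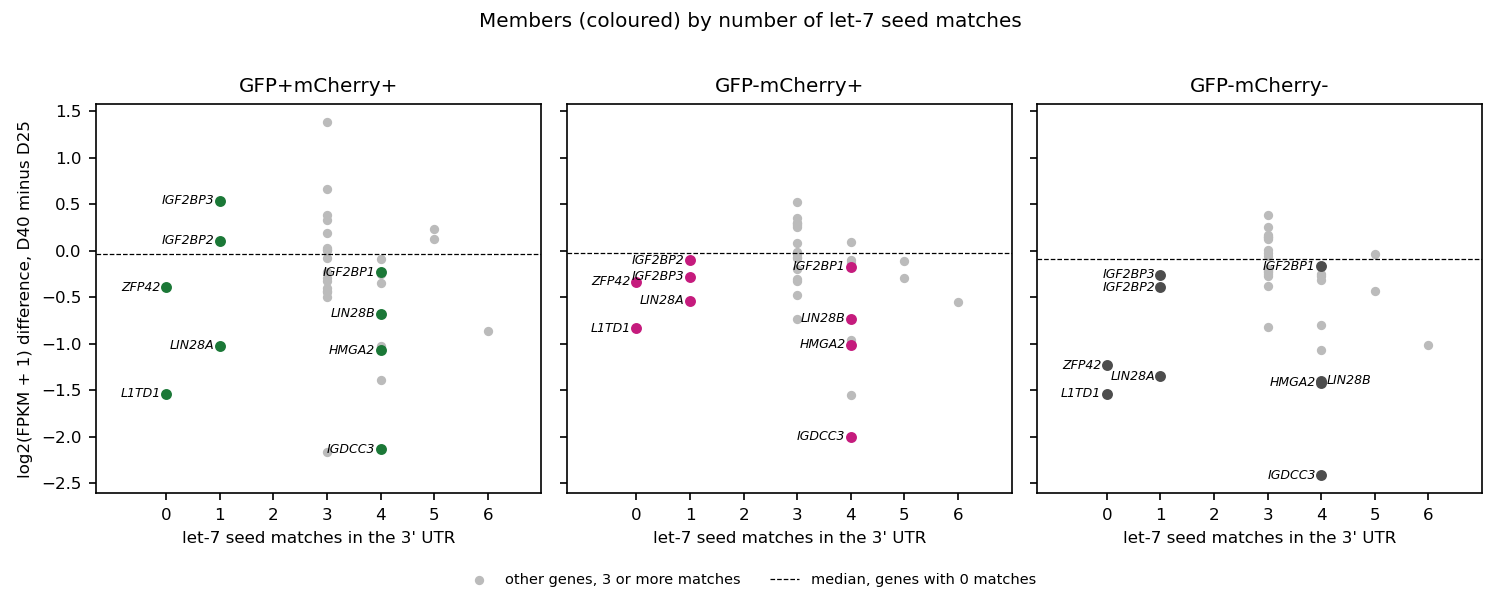
Difference in log2(FPKM + 1) between D40 and D25 against the number of let-7 seed matches in the 3′ UTR, 1 panel a population, with members coloured and other genes with 3 or more matches in grey. IGDCC3 and IGF2BP1 both have 4 matches and lie at -2.13 and -0.23 in GFP+mCherry+, -2.00 and -0.17 in GFP-mCherry+, and -2.41 and -0.17 in GFP-mCherry- cells.

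Other known let-7 targets, 33 tested genes from textbook knowledge with the members left out, changed in small numbers between the days. In GFP+mCherry+ cells 1 rose and 1 fell, in GFP-mCherry+ cells 1 rose and 3 fell, and in GFP-mCherry- cells 1 rose and 5 fell, beside 2.18%, 0.633% and 1.56% of all genes called higher and 1.88%, 3.91% and 2.32% called lower. The list's median was -0.21, -0.14 and -0.20, beside -0.04, -0.03 and -0.09 over all genes. HMGA1, the paralogue of HMGA2 and a gene with processed pseudogenes that may take its reads, fell in all 3 populations. It averaged 20.8 FPKM at D40 against 53.7 at D25 in GFP+mCherry+ cells (log2 difference -1.37 ± 0.31, limma adjusted p = 0.0191), 34.3 against 84.1 in GFP-mCherry+ cells (-1.34 ± 0.28, adjusted p = 0.0139) and 56.7 against 149.8 in GFP-mCherry- cells (-1.39 ± 0.28, adjusted p = 0.0118). The call was lost without library 4, 7 or 13 in the first (adjusted p = 0.0755, 0.0859 and 0.341), without library 2, 5, 14 or 17 in the second (0.0572 to 0.0793) and without library 6 or 15 in the third (0.0612 and 0.0520).

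Each remaining call of that list was also lost without some single library, apart from that of MYCN in GFP-mCherry- cells, which was not followed through the alternatives. LRIG3 rose in GFP+mCherry+ cells (0.97 ± 0.24, limma adjusted p = 0.0338), a call lost without library 4, 7, 10 or 13 (0.0564 to 0.270). THBS1, a matrix glycoprotein, rose in GFP-mCherry+ (1.17 ± 0.31, adjusted p = 0.0393) and GFP-mCherry- cells (1.41 ± 0.31, adjusted p = 0.0194), where 4 single libraries each ended the call (2, 5, 14 and 17 in the first, 6, 9, 12 and 18 in the second). ARID3A and MYCN, both transcription factors, fell in GFP-mCherry+ cells (-1.23 ± 0.29 and -0.82 ± 0.19, adjusted p = 0.0260 and 0.0247), calls that ended without library 2, 5, 14 or 17. In GFP-mCherry- cells ARID3A, MYCN, HMGA1, PRTG and TRIM71 fell. PRTG averaged 6.504 FPKM at D40 against 22.8 at D25 there (-1.66 ± 0.33, limma adjusted p = 0.0112; 0.0677 without library 6 and 0.0535 without library 15), and TRIM71, an RNA-binding protein of early embryos with 6 seed matches, 2.12 against 5.33 FPKM (-1.01 ± 0.27, adjusted p = 0.0454, lost without any 1 of the 6 libraries).

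Of 15 genes of microRNA processing and of LIN28-dependent let-7 decay, KHSRP alone fell in GFP+mCherry+ and GFP-mCherry+ cells, and KHSRP and TRIM71 fell in GFP-mCherry- cells. KHSRP, a splicing and decay factor that also promotes let-7 maturation, averaged 62.0 FPKM at D40 against 133.1 at D25 in GFP+mCherry+ cells (-1.09 ± 0.21, limma adjusted p = 0.00774, 0.134 without library 13). It averaged 81.3 against 160.9 FPKM in GFP-mCherry+ cells (a ratio of means of 0.506, adjusted p = 0.0111, lost without library 2, 5 or 14) and 120.1 against 199.8 FPKM in GFP-mCherry- cells (-0.75 ± 0.19, adjusted p = 0.0393, lost without library 3, 6, 9, 12 or 15). DICER1 did not pass the test, at -0.11 ± 0.27, 0.35 ± 0.24 and 0.14 ± 0.24. HUWE1, the host gene of let-7f-2 and miR-98 and the 1 host gene in the table, did not pass either, at 0.52 ± 0.21, 0.20 ± 0.19 and 0.59 ± 0.19. The list's median was -0.03, -0.04 and -0.06, near that of all genes.

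Among 18 tested oncofetal genes, those of foetal tissues that return in tumours, 2 fell in GFP+mCherry+ cells, 1 fell in GFP-mCherry+ cells, and 4 fell and 1 rose in GFP-mCherry- cells, beside 1.88%, 3.91% and 2.32% of all genes called lower and 1.56% called higher in GFP-mCherry- cells. MDK (midkine, a growth factor of embryonic tissue) fell in all 3. It averaged 138.1 FPKM at D40 against 434.3 at D25 in GFP+mCherry+ cells (-1.68 ± 0.30, limma adjusted p = 0.00371, 0.102 without library 13), 452.1 against 1119 in GFP-mCherry+ cells (-1.37 ± 0.27, adjusted p = 0.0118, lost without library 2, 5, 14 or 17) and 441.4 against 1270 in GFP-mCherry- cells (-1.53 ± 0.27, adjusted p = 0.00584, kept in every alternative). CLDN6, a tight junction protein, fell in GFP+mCherry+ cells, to 40.4 FPKM at D40 against 144.4 at D25 (-1.76 ± 0.33, adjusted p = 0.00626, 0.0795 without library 13). In GFP-mCherry- cells the embryonic globin HBE1 fell (-1.57 ± 0.26, adjusted p = 0.00404, kept in every alternative), as did HBG2 (-0.99 ± 0.26, adjusted p = 0.0439, lost without library 3, 9, 12, 15 or 18), whose reads a near-identical copy may share. The imprinted gene DLK1 rose there (1.33 ± 0.32, adjusted p = 0.0329, lost without library 6, 9, 12 or 15). The list's median was -0.73, -0.23 and -0.30.

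The other lists changed little between the days. Of 11 tested pluripotency genes none passed limma's adjusted test in GFP+mCherry+ cells, and 2 had an unadjusted p under 0.05. FOXH1 fell in GFP-mCherry+ cells (-1.22 ± 0.31, limma adjusted p = 0.0355, lost without library 2, 5, 14 or 17), and in GFP-mCherry- cells DPPA4 fell (-0.98 ± 0.26, adjusted p = 0.0498, lost without any 1 of the 6 libraries) and LEFTY2 rose (1.42 ± 0.37, adjusted p = 0.0439, kept without library 3 and lost without any other). Of 13 genes of the insulin-like growth factor axis IGF1 alone passed, higher at D40 in GFP-mCherry- cells (1.47 ± 0.35, adjusted p = 0.0287, lost without library 3, 6, 12, 15 or 18). IGF2, the messenger RNA for which the IGF2BP proteins are named, averaged 431 FPKM at D40 and 830.6 at D25 in GFP+mCherry+ cells (-0.92 ± 0.27, adjusted p = 0.0709), and differed by 0.16 ± 0.24 and -0.05 ± 0.24 in the other populations. None of 8 IGF2BP client messenger RNAs were called in any population by limma, with unadjusted p-values under 0.05 for 2 in GFP+mCherry+, 0 in GFP-mCherry+ and 2 in GFP-mCherry- cells, and none of 18 proliferation genes were called, with 0 under 0.05 in each population. The summed proliferation genes overlapped between the days in all 3 populations. With only the compared groups in the fit, each call of a list gene in GFP-mCherry+ cells was lost (adjusted p = 0.0839 to 0.148).

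Between the populations more genes of these lists passed, as did more of all genes. In GFP+mCherry+ against GFP-mCherry- cells at D25, 18 of 18 proliferation genes had a negative difference, with 3 called lower beside 5.27% of all genes. At D40 17 of the 18 were negative, with 0 called. MYCN was lower in GFP+mCherry+ than in GFP-mCherry- cells on both days, at 7.09 against 27.2 FPKM at D25 (-1.78 ± 0.19, limma adjusted p = 4.04e-05) and 5.68 against 15.3 FPKM at D40 (-1.28 ± 0.22, adjusted p = 0.00157). It was also lower in GFP-mCherry+ than in GFP-mCherry- cells, at 15.0 against 27.2 FPKM at D25 (-0.80 ± 0.19, adjusted p = 0.00527) and 8.06 against 15.3 FPKM at D40 (-0.86 ± 0.19, adjusted p = 0.00315), and each of these 4 calls held in every alternative. MYC, also a let-7 target, was lower in GFP-mCherry+ than in GFP-mCherry- cells, at 3.05 against 9.32 FPKM at D25 (-1.32 ± 0.33, adjusted p = 0.00645) and 4.72 against 18.96 FPKM at D40 (-1.82 ± 0.33, adjusted p = 0.000601). In all, 10 of 33 let-7 targets were lower and 1 higher in GFP-mCherry+ than in GFP-mCherry- cells at D25, beside 16.4% and 12.1% of all genes, and 7 were lower and 3 higher at D40, beside 18.5% and 13.3%. In GFP+mCherry+ against GFP-mCherry- cells 3 were lower and 2 higher at D25, beside 5.27% and 5.78% of all genes, and 2 were lower and 0 higher at D40, beside 4.76% and 7.04%. In GFP+mCherry+ against GFP-mCherry+ cells 2 were lower and 4 higher on each day, beside 8.38% and 12% of all genes at D25 and 9.29% and 16.2% at D40. The list's median in GFP-mCherry+ against GFP-mCherry- cells was -0.34 at D25 and -0.30 at D40, beside -0.10 and -0.09 over all genes.

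Relatives of the members also differed between the sorted cells. NEO1 (neogenin, an immunoglobulin superfamily receptor related to IGDCC3) was higher in GFP+mCherry+ than in GFP-mCherry+ cells, at 110.5 against 54.0 FPKM at D25 (1.02 ± 0.24, limma adjusted p = 0.00841) and 164.5 against 52.6 FPKM at D40 (1.66 ± 0.27, adjusted p = 0.000731). IGDCC4, a paralogue of IGDCC3 with 1 seed match, was highest in GFP+mCherry+ cells at D25, at 22.1 FPKM against 7.62 in GFP-mCherry+ (1.38 ± 0.31, adjusted p = 0.00647) and 7.10 in GFP-mCherry- cells (1.50 ± 0.31, adjusted p = 0.00561), where IGDCC3 was highest in GFP-mCherry- cells. HMGA1 was lower in GFP+mCherry+ than in GFP-mCherry- cells at D25, at 53.7 against 149.8 FPKM (-1.48 ± 0.28, adjusted p = 0.00275). DPPA4, a chromatin factor of pluripotent cells, was higher in GFP+mCherry+ than in GFP-mCherry+ cells at D25, at 4.01 against 0.863 FPKM (1.39 ± 0.26, adjusted p = 0.00249). These calls of NEO1, IGDCC4, HMGA1 and DPPA4 held in every alternative. DPPA4 was the 1 called gene of the 11 tested pluripotency genes in that contrast, and the list's median was -0.18 with 6 of 11 below 0. At D40 DPPA4 was higher in GFP+mCherry+ than in GFP-mCherry+ cells, at 2.04 against 0.630 FPKM (0.93 ± 0.30, limma adjusted p = 0.0292), a call lost without library 10, 11, 13 or 17 (0.0668 to 0.149) and with the replicate block (0.0617). LEFTY2 was lower there, at 10.6 against 30.9 FPKM (-1.42 ± 0.41, adjusted p = 0.0193, lost without library 10, 13 or 14 at 0.0968, 0.0820 and 0.0570). In GFP-mCherry+ against GFP-mCherry- cells at D25, 3 of the 11 were higher (LEFTY2, TDGF1 and FOXH1) and 2 lower (DPPA4 among them), beside 12.1% and 16.4% of all genes. At D40 LEFTY2 and TDGF1 were higher and DPPA4 lower, beside 13.3% and 18.5%. The calls of LEFTY2, and of TDGF1 and DPPA4 at D25, held in every alternative. Those of FOXH1, and of TDGF1 and DPPA4 at D40, were lost without some single library.

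Of the oncofetal list, 8 of 18 were lower and none higher in GFP-mCherry+ than in GFP-mCherry- cells at D25, and 6 were lower and none higher at D40, beside 16.4% and 18.5% called lower over all genes. SOX4, a developmental transcription factor, was at 24.4 against 88.8 FPKM at D25 (-1.83 ± 0.25, limma adjusted p = 6.34e-05) and 23.4 against 62.7 FPKM at D40 (-1.44 ± 0.25, adjusted p = 0.000451), and GPC3 (a glypican of the cell surface) at 222.7 against 710.8 FPKM at D25 (-1.77 ± 0.36, adjusted p = 0.00153) and 154.3 against 670.8 FPKM at D40 (-2.25 ± 0.36, adjusted p = 0.000237). In GFP+mCherry+ against GFP-mCherry+ cells 5 of the 18 were higher at D25 (DLK1, SOX4 and MEST among them) and 1 lower, beside 12% and 8.38% of all genes. At D40 2 were higher and 3 lower, beside 16.2% and 9.29%. The list's median in this contrast was 0.33 at D25 and 0.03 at D40. MDK was the 1 lower gene at D25 and was also lower at D40 (-1.35 ± 0.27, limma adjusted p = 0.00333 at D25 and -1.66 ± 0.30, adjusted p = 0.00134 at D40). These calls of SOX4, GPC3 and MDK held in every alternative.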

How the data were processed

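RNA-seq libraries (17, in 6 groups of population and day) were grouped from the labels by the number that opens each title. The build was hg19, and the tools listed were STAR 2.5.2b, Cufflinks 2.1.1, bcl2fastq 2.19 and cutadapt, per the submitters' processing notes, without their settings. The values deposited by the authors are read as FPKM because Cufflinks gives that unit and their range fits it; no unit stands in the header. Of 20368 lines 71 repeat an identifier, and lines of 1 name were summed. Columns of no sample numbered 0. Values were transformed here to log2 of the deposited FPKM with a pseudocount of 1, and the 14845 genes that reached 1 FPKM in 2 or more libraries were fitted with limma 3.58.1 in R 4.3.3 (6 group means, 11 residual degrees of freedom, trended eBayes). An adjusted p (Benjamini-Hochberg, over 14845 genes) under 0.05 was a call, two-sided. On simulated data for GFP-mCherry- D40 against D25 (14845 genes), 41% of changes of 1 and 97% of changes of 2 on the log2 scale were recovered, with 4 false calls. The changes were placed only in genes with a mean log2(FPKM + 1) above 1, with independent normal spread. Recovery in lower genes was not measured.

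The members and lists were chosen with earlier results of these data known, and the grouping by let-7 matches was added after the values were seen. The rule for naming took all members, in each list and comparison up to 4 called genes with the smallest adjusted p, single genes of small counts, and the 4 genes most like a member. Not every gene that met this rule is named. Between populations, the lists of microRNA processing, the insulin-like growth factor axis and IGF2BP clients are not described, though some of their genes were called, and the proliferation list is described only in part. MYCN in GFP-mCherry- cells between days, IGF2, DICER1, HUWE1, EPCAM, NANOG, SOX2, PTAFR, HIC2, LIMD2 and the called marker genes were named after their values were seen. Let-7 sequences are from RefSeq, and UTRs from GENCODE release 29 on GRCh38, 1 principal transcript a gene. Alternatives were a pseudocount of 0.1, no filter, a filter of 5 FPKM, median-of-ratios scaling, quantile normalization, zeros set to missing, only the compared groups, a replicate block by runs of 3 library numbers, leaving out single libraries, libraries 13 and 14, and, added after the values were seen, libraries 1 and 12.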

Additional observations from a re-analysis of the deposited data

Results flagged for a closer look

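DLK1, an imprinted foetal gene of the oncofetal list, differed in its day change between the GFP+mCherry+ and GFP-mCherry- populations. It was at 438 and 340 FPKM in GFP+mCherry+ D40 libraries, against 744, 576 and 744 FPKM in GFP+mCherry+ D25 libraries. In GFP-mCherry- cells it was at 748, 1342 and 555 FPKM at D40, against 413, 282 and 297 FPKM at D25. The difference of the 2 day changes was -2.16 ± 0.49 on the log2 scale (limma interaction contrast, adjusted p = 0.0393). The call was lost with a pseudocount of 0.1 (adjusted p = 0.104), with no filter (0.0665), with a filter of 5 FPKM (0.0698), without libraries 13 and 14 (0.0710), without libraries 1 and 12 (0.0900) and in 9 of the fits that left out 1 library (0.0505 to 0.189).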

How the results depend on the processing

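No result past its threshold that was followed through the alternatives changed direction in any of them. The called marker genes, PTAFR, HIC2, LIMD2 and MYCN between days in GFP-mCherry- cells were not followed. Over all genes, 602, 675 and 575 were called between days in GFP+mCherry+, GFP-mCherry+ and GFP-mCherry- cells. A pseudocount of 0.1 gave 337 in GFP-mCherry-, a filter of 5 FPKM 348 in GFP+mCherry+ and 378 in GFP-mCherry-, quantile normalization 439 in GFP-mCherry+, the compared groups alone 208 in GFP+mCherry+ and 11 in GFP-mCherry+, omission of libraries 13 and 14 293 and 112, and omission of libraries 1 and 12 1146 in GFP+mCherry+. Leaving out 1 library gave 246 to 1038, 78 to 1621 and 154 to 444.

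GFP+mCherry+ against GFP-mCherry+ gave 3023 calls at D25 (1766 to 2366 without 1 library) and 3783 at D40 (1241 to 4237), with 1304 at D40 with the compared groups alone and 1858 without libraries 13 and 14. Against GFP-mCherry- cells, GFP+mCherry+ gave 1641 at D25 (859 to 1352) and 1751 at D40 (546 to 2070; 525 and 661 in the same 2 settings), and GFP-mCherry+ gave 4234 (3114 to 3822) and 4733 (3398 to 4599).

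Differences of day change gave 2 (GFP+mCherry+ minus GFP-mCherry+), 1 (GFP-mCherry+ minus GFP-mCherry-) and 184 calls (GFP+mCherry+ minus GFP-mCherry-), with 0 to 75, 0 to 17 and 108 to 195 without 1 library. A pseudocount of 0.1 gave 0, 0 and 7, a filter of 5 FPKM 0, 0 and 54, no filter 46 and 0, either scaling 1 and 0, zeros as missing 9, the compared groups alone 0 and 0, omission of libraries 13 and 14 38 and 0, and of libraries 1 and 12 14 and 30. The cause was not tested. Other scalings moved the split of higher and lower calls: GFP-mCherry+ against GFP-mCherry- at D25 had 1803 higher and 2431 lower, and 2168 and 2028 with median-of-ratios scaling, and at D40 1981 and 2752, and 2426 and 2472. GFP+mCherry+ against GFP-mCherry+ had 1779 and 1244 at D25, and 1479 and 1534 with median-of-ratios scaling, and at D40 2404 and 1379, 2091 and 1832 with median-of-ratios scaling, and 1830 and 1835 with quantile normalization, which moved the median of all genes by -0.13. Between days the splits were 323 and 279 in GFP+mCherry+ (339 and 220 with median-of-ratios scaling), 94 and 581 in GFP-mCherry+ (115 and 324 with quantile normalization) and 231 and 344 in GFP-mCherry- (248 and 249 with median-of-ratios scaling). The replicate block on library numbers could be fitted within a day and moved no count by over 1.5 times (1505 to 5157 calls); same-numbered sets correlated between -0.123 and 0.458. Of the values of single genes and lists under the alternatives, 4630 kept their call or size, 400 lost their call and 528 moved. Depth is unknown, so no detection limit can be given for low members.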
